A study of Homo sapiens with 9 samples.

Results

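The genes described here are 31 that make, move and sense cholesterol in AC16 cells, chosen by name from the 60671 genes of an RNA-seq table. They comprise 7 enzymes of the mevalonate pathway, 11 enzymes that lead from farnesyl diphosphate through squalene to cholesterol, 4 genes of sterol sensing, 4 of cholesterol uptake and transport inside the cell, and the 2 liver X receptors with 3 of their targets. AC16 is an established human line derived from a fusion of adult ventricular cells with fibroblasts. Polyadenylated RNA was sequenced from 9 libraries in 3 groups of 3: cells in low glucose, cells in high glucose, and cells in high glucose with chrysin, a plant flavonoid. All groups share the one line and differ in medium glucose or the added compound only as far as the labels say. The labels state no glucose concentration, chrysin dose, vehicle or treatment time. The series title places the cells in work on diabetic cardiomyopathy and ferroptosis, a form of cell death driven by lipid peroxidation.

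Cholesterol is built from acetyl-CoA through mevalonate and the isoprenoid diphosphates to squalene, which is closed into lanosterol and trimmed to cholesterol. When sterol in the endoplasmic reticulum is low, the escort protein SCAP carries the SREBP transcription factors to the Golgi, where they are cut and released to raise transcription of these enzymes. When sterol is plentiful, INSIG proteins hold SCAP back, and oxysterols activate the liver X receptors, which raise efflux genes. The same pathway makes the isoprenoids used for ubiquinone, dolichol and protein prenylation.

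Levels are in FPKM (fragments counted per kilobase of transcript, scaled by depth), and whole reads recovered from them came to between 18171842 and 23024300 per library. The high glucose library 1 stood apart: over the 8314 genes of at least 10 FPKM, its log2 difference from the other high glucose libraries had an SD of 0.136 and 0.15, against 0.0986 to 0.111 between other libraries of one group. Mitochondrially encoded genes took 2.79 to 3.04% of reads without chrysin and 3.8 to 3.89% with it. Of 10 cardiomyocyte markers, 9 averaged under 1 FPKM, with MYL2, PLN and NKX2-5 at 0 in every library. The exception was the transcription factor GATA4, and the 10 markers together summed to 9.3 to 11.2 FPKM per library. The heart muscle identity of the line's label is thus not seen in the other 9 markers. All 11 fibroblast markers exceeded 1 FPKM, and their summed level was 7909 to 8218 FPKM in the low glucose libraries, 9338 to 9806 in the high glucose ones and 6548 to 6709.8 with chrysin. Of 4 smooth muscle markers 3 exceeded 1 FPKM, with sums of 207 to 212, 182 to 197 and 286 to 298 FPKM in the same order. The 5 endothelial markers were all under 1 FPKM, as were 4 of 5 leukocyte markers, with CD3E at 0. The part of these marker shifts in the results was not tested. In bulk RNA, fewer cells of a type and less RNA per cell cannot be told apart. The labels do not say whether replicate libraries came from separate cultures, so the p-values rest on the spread among these libraries alone, and that spread may be technical.

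Differences were tested with limma on log2(FPKM + 0.5) across the 16996 genes that averaged at least 0.5 FPKM in a group. A gene was called at a Benjamini-Hochberg adjusted p under 0.05 over all of them. Of the 31 genes 30 were tested. The exception was the sterol exporter ABCG1, with 0 reads in all 9 libraries, which allows up to 3 reads in each for counting error only. The annotation and counting rules behind this 0 are not stated in the sources. The most abundant gene was FDPS, at 230 to 268 FPKM over the 9 libraries, followed by FDFT1 at 209 to 236 and HMGCS1 at 167 to 261. CYP51A1, ABCA1 and MYLIP were the lowest of those tested, at 1.71 to 3.19, 3.69 to 6.27 and 5.04 to 7.47 FPKM.

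**Figure D1:**
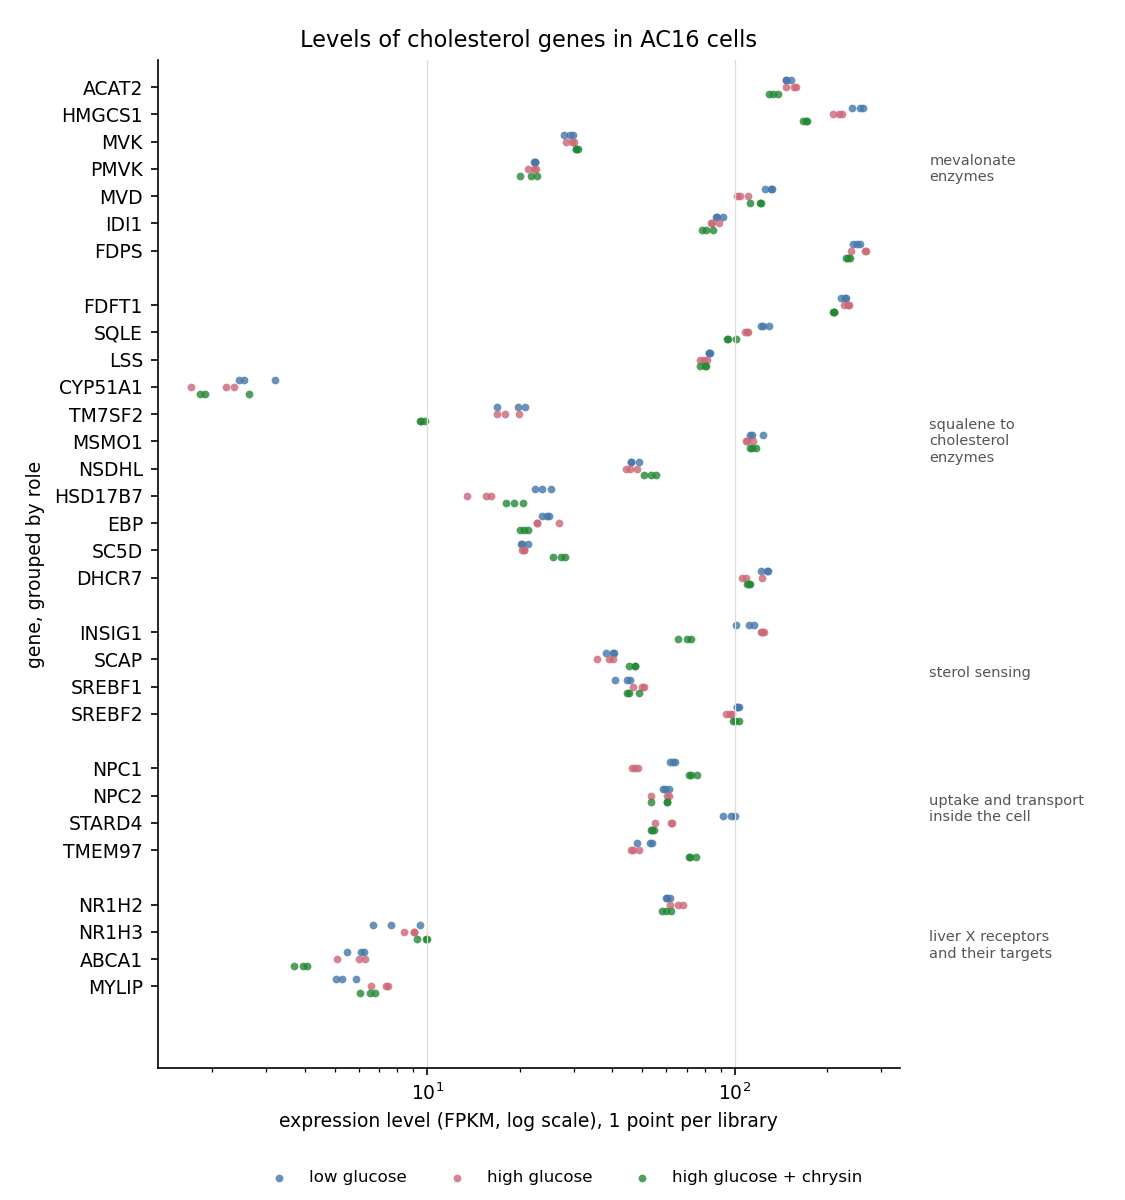
Expression of 30 genes in FPKM on a log axis, grouped by role, with 1 point per library coloured by group; ABCG1, at 0 in every library, cannot be drawn on a log axis. Points of one group lie close together, and levels span from 1.71 FPKM for CYP51A1 to 268 FPKM for FDPS.

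In high glucose the sterol carrier STARD4, the ketoreductase HSD17B7, the lysosomal exporter NPC1 and the enzymes MVD, HMGCS1 and SQLE were lower than in low glucose, and MYLIP, which marks lipoprotein receptors for degradation, was higher. Of the 30 genes tested 3 were higher and 8 lower in high glucose than in low glucose, 36.7% called, against 23.5% of all genes tested (14.6% higher and 8.91% lower). The median log2 difference was -0.05 over the 30 genes and 0.02 over all genes. The libraries of the 2 groups did not overlap for 13 of the 30 genes, against 37.9% of all genes. Under median-of-ratios scaling the split was 1 higher and 9 lower. Without the high glucose library 1 it was 2 higher and 7 lower.

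With chrysin the sterol reductase TM7SF2, the sterol sensor INSIG1, the efflux pump ABCA1 and HMGCS1 were lower than in high glucose alone, and TMEM97, NPC1, SC5D, HSD17B7 and SCAP were higher. Of the 30 genes 7 were higher and 11 lower with chrysin than in high glucose alone, 60.0% called, against 45.8% of all genes (24.9% higher and 20.9% lower). The medians were -0.03 over the 30 genes and 0.03 over all genes. The libraries did not overlap for 20 of the 30, against 54.3% of all genes. Without the high glucose library 1 the counts were 7 higher and 9 lower, and without the chrysin library 2 they were 7 higher and 7 lower. Set against low glucose instead, which differs in both glucose and chrysin, the chrysin libraries had 7 genes higher and 13 lower, 66.7% called against 51.0% of all genes (29.7% higher and 21.3% lower), with medians of -0.08 and 0.05. Libraries did not overlap for 22 of the 30, against 60.0% of all genes. Median-of-ratios scaling gave 5 higher and 16 lower there. The first 2 comparisons share the high glucose libraries, so each gene's values are set side by side below and no agreement or opposition between them is read as a result.

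**Figure D2:**
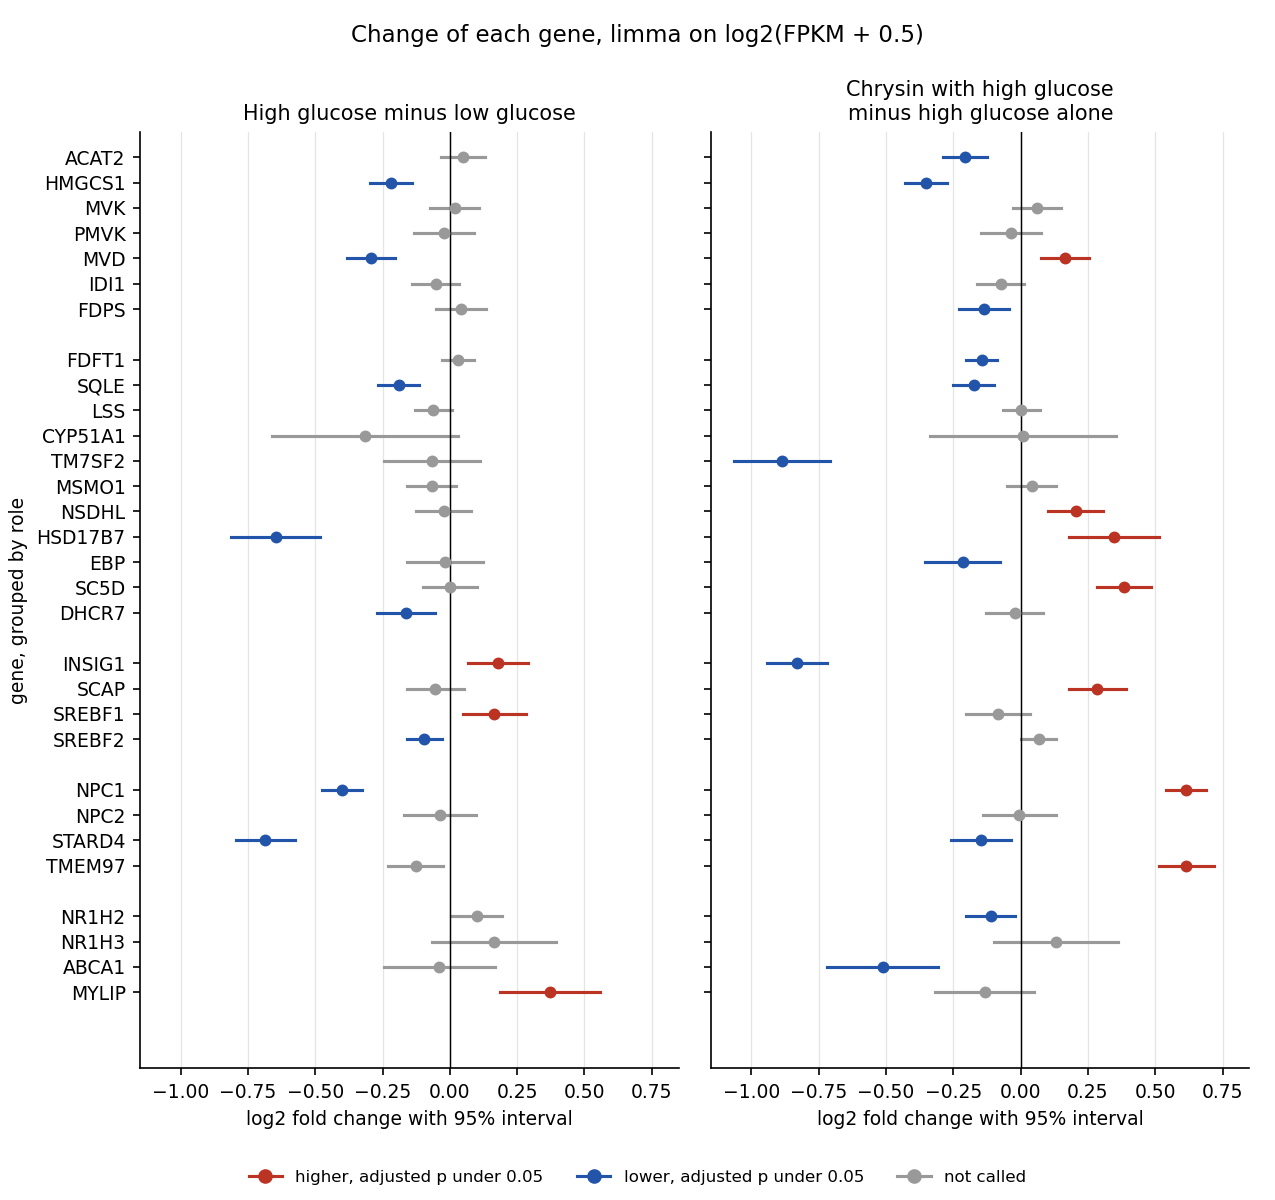
Log2 difference of each tested gene with its 95% interval, for high minus low glucose on the left and for chrysin with high glucose minus high glucose alone on the right; red and blue points were called higher and lower, grey points were not called. The intervals of STARD4 and HSD17B7 lie farthest below 0 on the left, and those of TM7SF2 and INSIG1 on the right, where NPC1 and TMEM97 lie farthest above 0.

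Among the 7 mevalonate enzymes none was called higher and 2 were called lower in high glucose, while with chrysin 1 was higher and 3 lower than in high glucose alone. The shares called were 28.6% and 57.1%, against 23.5% and 45.8% of all genes. HMGCS1, which joins acetoacetyl-CoA and acetyl-CoA to HMG-CoA, stood at 241, 256 and 261 FPKM in the low glucose libraries 1 to 3, at 209, 224 and 218 in high glucose and at 172, 171 and 167 with chrysin. The 3 groups did not overlap, with low glucose highest and chrysin lowest. HMGCS1 fell by 0.22 on the log2 scale in high glucose (SE 0.0353, limma adjusted p = 0.0015). Its fall with chrysin was -0.35 against high glucose (SE 0.0353, limma adjusted p = 1.8e-05) and -0.57 against low glucose (adjusted p = 4.8e-07). Chrysin libraries averaged 170 ± 2.5 FPKM (SD, n = 3) and low glucose libraries 252 ± 11 FPKM, a ratio of 1.48.

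MVD, the decarboxylase that makes isopentenyl diphosphate, measured 126, 131 and 132 FPKM in low glucose, 110.2, 102 and 104 in high glucose and 112, 121 and 122 with chrysin. All high glucose libraries lay below all others. The log2 difference was -0.29 for high against low glucose (SE 0.0408, limma adjusted p = 6e-04) and 0.17 for chrysin against high glucose (SE 0.0408, adjusted p = 0.0069). Against low glucose the chrysin libraries were lower, at -0.13 (adjusted p = 0.022), a call lost at 0.067 to 0.0911 without the low glucose library 2 or 3 or the chrysin library 1. That call was also lost with no filter (0.0513).

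ACAT2, the cytosolic thiolase at the head of the pathway, measured 147, 153 and 147 FPKM in low glucose, 158, 147 and 156 in high glucose and 129, 138 and 133 with chrysin. The chrysin libraries were the lowest, and the other groups overlapped. With chrysin ACAT2 fell by 0.21 on the log2 scale against high glucose (limma adjusted p = 0.001) and by 0.16 against low glucose (adjusted p = 0.0046). In GENCODE 29 ACAT2 shares 26.5% of its exon bases with SOD2 on the opposite strand. It shares 9.23% with TCP1, also on the opposite strand. SOD2, the mitochondrial superoxide dismutase, was lower with chrysin than in high glucose (-0.41, adjusted p = 5e-06), and TCP1, a chaperonin subunit, was higher (0.15, adjusted p = 0.00078). No source used here says whether the counting used strand, and without strand the reads of the shared bases cannot be told apart.

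FDPS, which makes farnesyl diphosphate, measured 242, 251 and 256 FPKM in low glucose, 268, 239 and 265 in high glucose and 233, 230 and 238 with chrysin. Its chrysin libraries were the lowest, by a narrow margin. The difference from high glucose was -0.14 (limma adjusted p = 0.021), lost at 0.0534 to 0.0724 without the high glucose library 1 or 3 or the chrysin library 1 or 2, and at 0.057 with no filter. Against low glucose its difference of -0.10 was not called (adjusted p = 0.081), but was without the high glucose library 2 (0.0175), under median-of-ratios scaling (0.0121), with limma voom (0.0494) and with only the groups compared (0.0148). IDI1, the isopentenyl diphosphate isomerase, was called in the chrysin against low glucose comparison alone, at -0.13 (adjusted p = 0.021), and lost that call at 0.0556 to 0.0866 without the low glucose library 2 or the chrysin library 1 or 3. The kinases MVK and PMVK were called in no comparison. For chrysin against high glucose their 95% intervals ran from -0.03 to 0.15 and from -0.15 to 0.08.

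Of the 11 enzymes from squalene to cholesterol 3 were lower and none higher in high glucose. With chrysin 3 were higher and 4 lower than in high glucose, and 2 higher and 6 lower than in low glucose. The shares called were 27.3%, 63.6% and 72.7%, against 23.5%, 45.8% and 51.0% of all genes. SQLE, the squalene epoxidase and a slow step of the pathway, measured 122, 129.5 and 124 FPKM in low glucose, 108, 110.4 and 110.1 in high glucose and 101, 94.8 and 94.9 with chrysin. As for HMGCS1, the groups fell in the order low glucose, high glucose, chrysin without overlap. SQLE differed by -0.19 in high against low glucose (limma adjusted p = 0.0029). With chrysin it differed by -0.17 from high glucose (adjusted p = 0.0019) and by -0.37 from low glucose (adjusted p = 8.7e-06). FDFT1, the squalene synthase one step earlier, fell by 0.14 on the log2 scale with chrysin against high glucose (adjusted p = 0.0011), from 232 ± 4.7 to 210.1 ± 1.4 FPKM (SD, n = 3). Its levels in high and low glucose overlapped. LSS, which closes the ring to lanosterol, was called in no comparison, although median-of-ratios scaling called it lower with chrysin than in low glucose (-0.12, adjusted p = 0.0104). For chrysin against high glucose its 95% interval ran from -0.07 to 0.07.

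TM7SF2, a sterol C14 reductase of the inner nuclear membrane and endoplasmic reticulum, lies on chromosome 11 at 65111845 to 65116384 of GRCh38 and had the lowest log2 difference of the 30 genes with chrysin against high glucose. It measured 19.7, 20.8 and 16.9 FPKM in low glucose, 19.9, 17.9 and 16.9 in high glucose and 9.85, 9.56 and 9.45 with chrysin. The chrysin libraries were far below the rest, while both glucose levels overlapped. The difference was -0.89 against high glucose (SE 0.0807, limma adjusted p = 8.9e-06), a ratio of means of 1.89, and -0.95 against low glucose (adjusted p = 3.8e-06).

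HSD17B7, on chromosome 1 at 162790702 to 162812817, reduces a ketone formed as ring methyl groups are removed. It measured 23.7, 22.4 and 25.3 FPKM in low glucose, 15.5, 13.5 and 16.1 in high glucose and 20.5, 19.2 and 18 with chrysin. High glucose was lowest and chrysin lay between, with no overlap among the 3 groups. It fell by 0.65 on the log2 scale in high against low glucose (SE 0.0753, limma adjusted p = 2e-04), and chrysin libraries were higher than high glucose by 0.35 (adjusted p = 0.0033) and differed from low glucose by -0.30 (adjusted p = 0.0064). Its near-identical pseudogene HSD17B7P2 also fell in high glucose, from 3.09 ± 0.29 to 1.38 ± 0.3 FPKM (-0.94, adjusted p = 0.00099), and the split of reads between the pair is uncertain.

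SC5D, the desaturase that sets the double bond at lathosterol, measured 20.3, 21.3 and 20.2 FPKM in low glucose, 20.6, 20.4 and 20.7 in high glucose and 27.2, 28.1 and 25.7 with chrysin. All chrysin libraries were above all others. SC5D rose by 0.38 against both high glucose (SE 0.0453, limma adjusted p = 5.6e-05) and low glucose (adjusted p = 4.2e-05). NSDHL, the decarboxylating dehydrogenase that works beside HSD17B7, measured 45.9, 48.8 and 45.9 FPKM in low glucose, 48.3, 44.5 and 45.7 in high glucose and 53.6, 50.7 and 55.6 with chrysin. It rose with chrysin by 0.21 against high glucose (adjusted p = 0.004) and by 0.18 against low glucose (adjusted p = 0.0068), and the chrysin libraries were again the highest.

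EBP, the isomerase that moves the double bond of the ring, averaged 24.4 ± 0.63, 24.2 ± 2.4 and 20.7 ± 0.63 FPKM (SD, n = 3) in low glucose, high glucose and chrysin. Its difference with chrysin was -0.22 against high glucose (limma adjusted p = 0.017), a call lost without the chrysin library 2 (0.0581), and -0.23 against low glucose (adjusted p = 0.01). DHCR7, the last reductase on one branch, measured 122, 127 and 128 FPKM in low glucose and 123, 109 and 106 in high glucose, and the groups overlapped through the high glucose library 1. Its difference of -0.16 (adjusted p = 0.033) was lost at 0.0907 to 0.106 without the low glucose library 2 or 3 or the high glucose library 2 or 3. The call was also lost with no filter (0.0881), with only the groups compared (0.0635) and with the replicate number as a block (0.0518). With chrysin DHCR7 measured 111, 109.7 and 112 FPKM, differing from low glucose by -0.18 (adjusted p = 0.0081) and not called against high glucose (-0.02, adjusted p = 0.73).

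MSMO1, which starts removal of the ring methyl groups, was called in no comparison, with an interval of -0.05 to 0.13 for chrysin against high glucose. The lanosterol demethylase CYP51A1 had 52 to 103 reads per library. It measured 3.19, 2.45 and 2.54 FPKM in low glucose, 2.22, 1.71 and 2.36 in high glucose and 1.83, 2.63 and 1.89 with chrysin, and passed the test in none of the 3 comparisons. Its interval for high against low glucose, from -0.66 to 0.03, was wide. CYP51A1 shares 79.4% of its exon bases with AC000120.2 on the same strand, which averaged 0.383 FPKM, and how reads of the shared bases were assigned is not stated in the sources. Without the chrysin library 2 it was called lower with chrysin than in low glucose (-0.44, adjusted p = 0.0423).

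The sensing genes moved in different directions. INSIG1, an endoplasmic reticulum protein that retains SCAP when sterol is high and is itself a classical SREBP target, measured 101, 111 and 116 FPKM in low glucose, 122, 125 and 123 in high glucose and 72.3, 65.4 and 70.2 with chrysin. High glucose was highest and chrysin lowest, with no overlap. The fall with chrysin was -0.83 against high glucose (SE 0.0506, limma adjusted p = 6.3e-07), from 124 ± 1.6 to 69.3 ± 3.5 FPKM (SD, n = 3), a ratio of 1.78. Against low glucose it was -0.65 (adjusted p = 2.1e-06). The rise in high glucose of 0.18 (adjusted p = 0.026) was lost at 0.0565 to 0.0846 without the low glucose library 1 or the high glucose library 2 or 3, at 0.0736 with no filter and at 0.0596 under median-of-ratios scaling.

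SCAP, the escort of the SREBPs, measured 38.3, 40.3 and 40.5 FPKM in low glucose, 40.1, 39 and 35.7 in high glucose and 45.2, 47.4 and 47.4 with chrysin. The chrysin libraries were the highest and the glucose levels overlapped. SCAP rose by 0.28 with chrysin against high glucose (limma adjusted p = 0.00064) and by 0.23 against low glucose (adjusted p = 0.0022). SREBF2, which encodes the SREBP chiefly tied to cholesterol genes, stayed within 93.5 to 103 FPKM over all libraries. Its difference between high and low glucose was -0.09 (adjusted p = 0.039) and it was not called with chrysin against high glucose (0.07, interval from 0.00 to 0.13, adjusted p = 0.084). Scaled without mitochondrially encoded genes SREBF2 was called higher with chrysin than in high glucose (0.09, adjusted p = 0.0367), and under median-of-ratios scaling lower than in low glucose (-0.08, adjusted p = 0.0289). SREBF1, whose SREBP forms are chiefly tied to fatty acid genes, was higher in high than in low glucose by 0.16 (adjusted p = 0.046), at 50.6, 49.9 and 46.6 against 45.8, 40.8 and 44.6 FPKM. Both glucose calls were marginal. That of SREBF2 was lost at 0.0573 to 0.109 without any 1 of the 3 low glucose libraries, the high glucose library 1 or 2 or the chrysin library 2. It was also lost with no filter (0.0551), with only the groups compared (0.0705) and with the replicate number as a block (0.0503). That of SREBF1 was lost at 0.0569 to 0.158 without the low glucose library 2 or 3, the high glucose library 1 or 2 or the chrysin library 2 or 3, and at 0.0946 under median-of-ratios scaling. The SREBF1 call was lost as well with no filter (0.105) and with only the groups compared (0.0603).

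The promoters of INSIG1, SREBF2, HMGCS1, STARD4 and TMEM97 are shown because INSIG1, HMGCS1, STARD4 and TMEM97 carry results of this text, a choice made after their values were seen, and SREBF2 holds the one full sterol regulatory element found. Each is 300 bases, 250 before and 50 after the gene's start, read 5′ to 3′ on the gene's strand from RefSeq on GRCh38.p14. Capitals mark CCAAT boxes (CCAAT, or ATTGG on the other strand) and sterol elements. They lie at chr7:155297628-155297927 (plus strand), chr22:41832855-41833154 (plus), chr5:43313363-43313662 (minus), chr5:111512486-111512785 (minus) and chr17:28318950-28319249 (plus).
INSIG1: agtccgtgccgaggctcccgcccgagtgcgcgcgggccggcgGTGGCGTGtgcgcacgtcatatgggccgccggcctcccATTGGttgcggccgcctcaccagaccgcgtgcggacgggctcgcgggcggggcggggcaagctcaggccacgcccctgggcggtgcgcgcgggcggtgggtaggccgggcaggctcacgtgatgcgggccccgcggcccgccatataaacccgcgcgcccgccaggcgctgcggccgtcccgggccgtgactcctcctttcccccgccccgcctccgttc
SREBF2: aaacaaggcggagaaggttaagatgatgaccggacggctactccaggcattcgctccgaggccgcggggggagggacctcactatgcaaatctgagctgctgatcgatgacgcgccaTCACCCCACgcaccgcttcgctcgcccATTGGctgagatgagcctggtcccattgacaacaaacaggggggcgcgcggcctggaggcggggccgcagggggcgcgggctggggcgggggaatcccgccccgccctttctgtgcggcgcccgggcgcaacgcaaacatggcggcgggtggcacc
HMGCS1: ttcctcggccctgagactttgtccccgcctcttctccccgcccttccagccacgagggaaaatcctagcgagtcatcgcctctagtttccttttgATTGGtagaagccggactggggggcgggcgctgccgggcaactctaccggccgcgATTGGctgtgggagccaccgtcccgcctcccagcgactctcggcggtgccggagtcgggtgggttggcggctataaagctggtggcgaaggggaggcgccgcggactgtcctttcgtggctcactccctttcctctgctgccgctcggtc
STARD4: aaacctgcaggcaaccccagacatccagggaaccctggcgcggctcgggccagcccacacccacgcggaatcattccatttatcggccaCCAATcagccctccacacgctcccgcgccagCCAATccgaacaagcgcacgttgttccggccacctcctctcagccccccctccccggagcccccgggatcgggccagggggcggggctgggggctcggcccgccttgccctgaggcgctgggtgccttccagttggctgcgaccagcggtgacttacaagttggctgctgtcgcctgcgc
TMEM97: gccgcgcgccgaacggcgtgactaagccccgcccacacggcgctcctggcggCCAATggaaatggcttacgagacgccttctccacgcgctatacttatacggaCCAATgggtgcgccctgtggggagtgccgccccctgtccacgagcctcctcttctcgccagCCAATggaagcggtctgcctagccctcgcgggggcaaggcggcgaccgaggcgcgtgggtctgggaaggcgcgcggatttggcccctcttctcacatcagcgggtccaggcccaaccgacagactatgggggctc

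RefSeq windows were matched for 27 of the 31 genes, 36 windows in all, since some genes have several starts. Windows of one gene can overlap, so 1 site can count in 2 windows. The sterol regulatory element, searched as TCACNCCAC on both strands, occurred in 1.13% of all 35116 promoters and in 1 of the 36 windows, that of SREBF2, 133 bases before the start. A shortened form inside it, CACNCCAC, was searched after the first result was seen. It occurred in 5.87% of all promoters and in 6 of the 36 windows, from 5 genes, ABCA1, IDI1, INSIG1, SC5D and SREBF2. The SC5D match is 1 site counted in 2 overlapping windows. The INSIG1 match lies on the opposite strand, its first base 208 bases before the start. The CCAAT box, bound by NF-Y, occurred in 34.6% of all promoters and in 22 of the 36 windows, from 20 of the 27 genes. It occurred 3 times in the TMEM97 window and at 2 places in each of the HMGCS1 and STARD4 windows shown. Another HMGCS1 window, chr5:43313132-43313431, is not shown and held no CCAAT box or sterol element. GGGCGG, the GC box bound by SP1, occurred in 45.0% of all promoters and in 32 of the 36 windows, from 26 of the 27 genes. The liver X receptor repeat was searched as an exact match only, with both AGGTCA copies and their spacing fixed. It was found in 0.0199% of all promoters and in no window of the 27 genes. Variant forms of the repeat were not searched, nor were forms of the sterol element other than the full and shortened ones. Such forms may be present in these windows. Bases outside the windows were not searched either. A match describes letters in these windows only.

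Of the 4 uptake and transport genes 2 fell and none rose in high glucose, while 2 rose and 1 fell with chrysin against high glucose, beside 23.5% and 45.8% of all genes called. NPC1, on chromosome 18 at 23506184 to 23586898 of GRCh38, exports cholesterol from lysosomes after lipoprotein uptake. It measured 61.8, 63 and 63.8 FPKM in low glucose, 46.4, 48.5 and 47.6 in high glucose and 75.5, 71.3 and 72.2 with chrysin. The groups were far apart, with high glucose lowest and chrysin highest. NPC1 fell by 0.40 on the log2 scale in high glucose (SE 0.0337, limma adjusted p = 2.6e-05). With chrysin it rose by 0.61 against high glucose (SE 0.0337, adjusted p = 3e-07), from 47.5 ± 1 to 73 ± 2.2 FPKM (SD, n = 3), and by 0.21 against low glucose (adjusted p = 0.00033). NPC2, the soluble lysosomal partner that hands cholesterol to NPC1, was called in no comparison, with an interval of -0.14 to 0.13 for chrysin against high glucose.

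TMEM97, a membrane protein that binds NPC1 and is also known as the sigma-2 receptor, measured 48.1, 52.9 and 54 FPKM in low glucose, 48.7, 46.8 and 46.1 in high glucose and 71.2, 75 and 71.6 with chrysin. All chrysin libraries stood well above the others. The rise with chrysin was 0.62 against high glucose (SE 0.0465, limma adjusted p = 2.5e-06) and 0.49 against low glucose (adjusted p = 8.7e-06). High and low glucose overlapped, and the difference of -0.13 missed the threshold (adjusted p = 0.073). It was called lower without the low glucose library 1 (-0.18, adjusted p = 0.0161), under median-of-ratios scaling (0.0366) and among genes of at least 5 FPKM (0.0458). TMEM97 shares 11.9% of its exon bases with IFT20 on the opposite strand, and IFT20 was lower with chrysin than in high glucose (-0.36, adjusted p = 0.00098).

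STARD4, a soluble carrier that moves sterol between membranes, had the lowest log2 difference of the 30 genes in high glucose. It measured 91.9, 97.3 and 100.4 FPKM in low glucose, 55.1, 62.6 and 62 in high glucose and 53.4, 54.5 and 54 with chrysin. Low glucose was far above both other groups, and the high glucose library 1 lay close to the chrysin libraries. The fall in high glucose was -0.69 (SE 0.0502, limma adjusted p = 9.7e-06), from 96.5 ± 4.3 to 59.9 ± 4.2 FPKM (SD, n = 3), a ratio of 1.61. Chrysin libraries were lower than low glucose, at -0.83 (adjusted p = 3.8e-07). The further difference of -0.15 from high glucose (adjusted p = 0.033) was lost at 0.0622 to 0.119 without the high glucose library 2 or 3 or any 1 of the chrysin libraries, at 0.0742 with no filter and at 0.0783 when scaled without mitochondrially encoded genes.

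**Figure D3:**
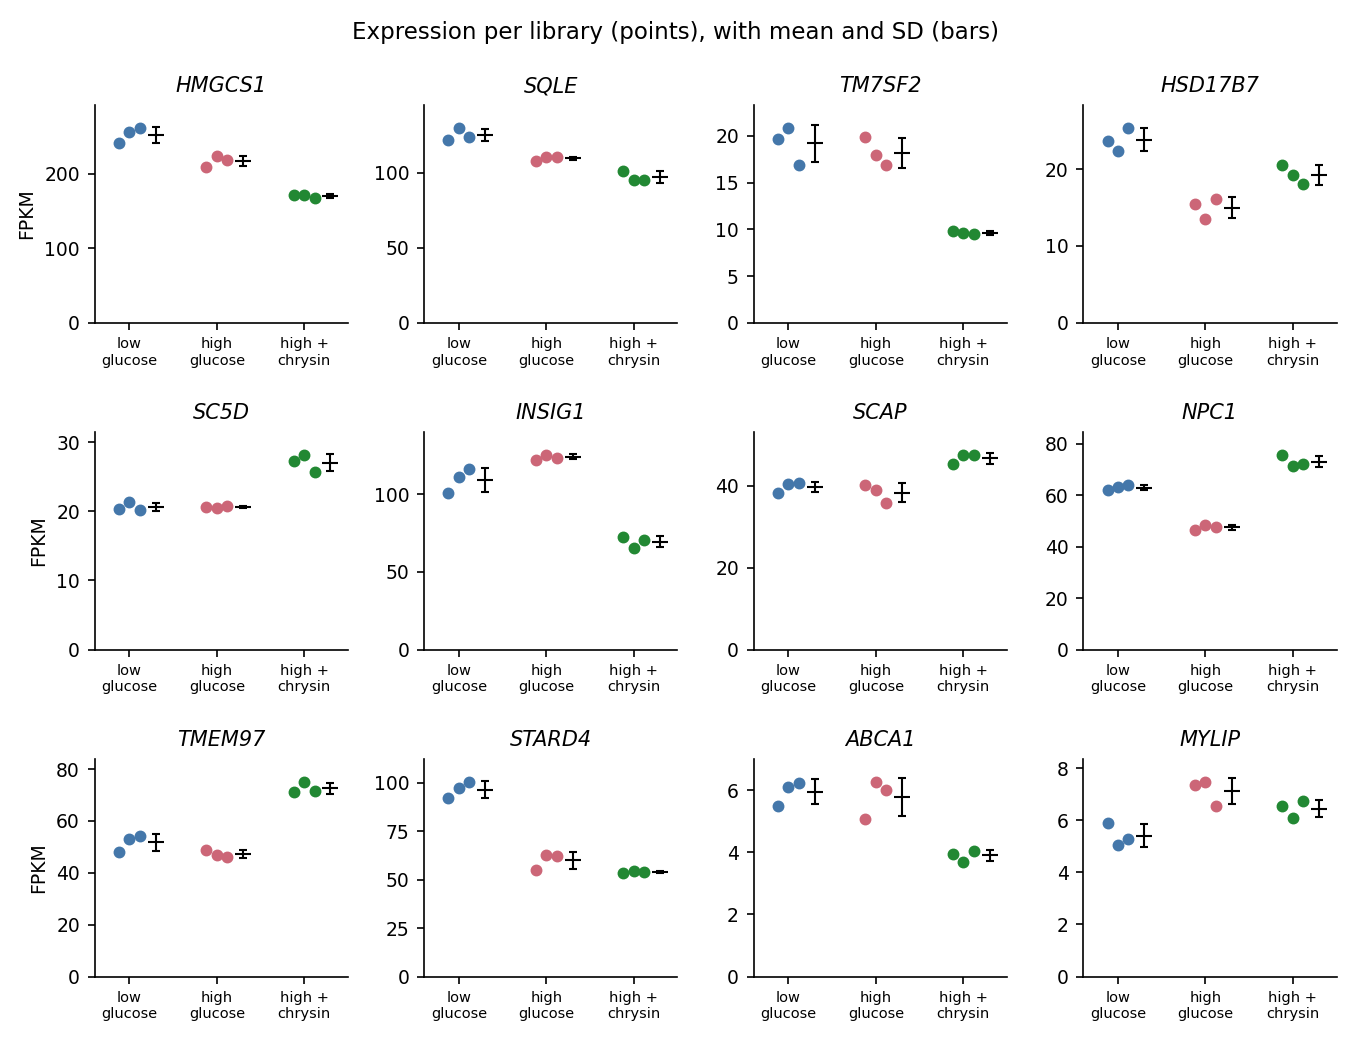
FPKM of 12 genes, 1 point per library, with the mean and SD of each group of 3 as bars and axes from 0. NPC1 is lowest in high glucose and highest with chrysin, STARD4 is high in low glucose alone, and INSIG1, TM7SF2 and ABCA1 are lowest with chrysin.

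No call of the 2 liver X receptors held in every alternative setting. NR1H2, the broadly expressed receptor, averaged 60.5 ± 0.99, 64.9 ± 3.1 and 60 ± 2.2 FPKM (SD, n = 3) in low glucose, high glucose and chrysin. It was called lower with chrysin than in high glucose (-0.11, limma adjusted p = 0.047) though the libraries overlapped. That call was lost at 0.0595 to 0.16 without any 1 of the low glucose libraries, the high glucose library 1 or 3 or the chrysin library 1 or 2. It was also lost with no filter (0.0825), with only the groups compared (0.0792) and when scaled without mitochondrially encoded genes (0.0831). Without the high glucose library 2, NR1H2 was called higher in high than in low glucose (0.14, adjusted p = 0.0421). NR1H3, the receptor best known from liver and macrophages, stayed under 10 FPKM on average in each group. Its difference of 0.30 between chrysin and low glucose (adjusted p = 0.035) came with overlapping libraries and was lost at 0.0886 to 0.134 without the low glucose library 1 or 3 or the chrysin library 2 or 3, and at 0.0778 under median-of-ratios scaling. The NR1H3 call was lost as well with no filter (0.0798) and with only the groups compared (0.0552). Without the low glucose library 2 NR1H3 was called higher in high glucose (0.29, adjusted p = 0.0322).

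ABCA1, the pump that loads cholesterol onto apolipoprotein and a direct liver X receptor target, measured 5.5, 6.11 and 6.25 FPKM in low glucose, 5.09, 6.27 and 6.02 in high glucose and 3.94, 3.69 and 4.06 with chrysin. The chrysin libraries were the lowest, and the 2 glucose levels overlapped. ABCA1 fell by 0.51 on the log2 scale against high glucose (SE 0.0931, limma adjusted p = 0.0011) and by 0.55 against low glucose (adjusted p = 0.00052). MYLIP, a liver X receptor target that encodes the ubiquitin ligase of lipoprotein receptors, measured 5.89, 5.04 and 5.27 FPKM in low glucose, 7.37, 7.47 and 6.56 in high glucose and 6.54, 6.07 and 6.75 with chrysin. Low glucose was the lowest group, and high glucose and chrysin overlapped. MYLIP rose by 0.37 in high glucose (SE 0.0834, adjusted p = 0.0087). Its difference of 0.24 between chrysin and low glucose (adjusted p = 0.034) was lost at 0.0841 to 0.113 without the low glucose library 2 or 3 or the chrysin library 1 or 3, and at 0.0874 under median-of-ratios scaling. The call was also lost with no filter (0.0568).

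Summed over genes, FPKM of the 7 mevalonate enzymes came to 921 ± 23, 871 ± 20 and 789 ± 9.8 (SD, n = 3) in low glucose, high glucose and chrysin. That of the 11 later enzymes came to 815 ± 19, 771 ± 16 and 744 ± 8.2. The uptake and transport genes summed to 271 ± 9, 213 ± 3.5 and 258 ± 3.2 FPKM, with high glucose lowest in every library. The sensing genes summed to 295 ± 7.6, 307 ± 3.7 and 263 ± 4.3 FPKM, with chrysin lowest in every library. These sums weigh abundant genes most and carry no test.

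**Figure D4:**
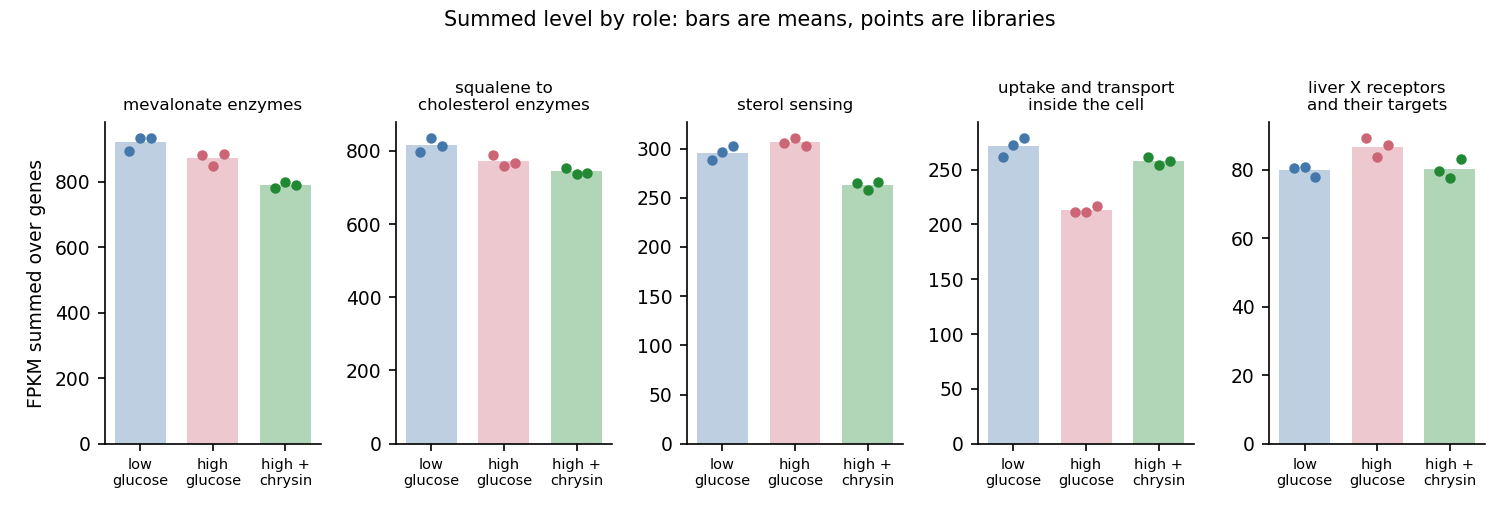
FPKM summed over the genes of each role, with the mean of each group of 3 as a bar from 0 and 1 point per library. The uptake and transport sum is lowest in high glucose, at 213 FPKM on average, and both enzyme sums are lowest with chrysin, at 789 and 744 FPKM.

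Other genes of the pathway were read from 4 further lists. With chrysin against low glucose, 51.0% of all genes were called. The shares called there were 46.2% for sterol sensing and degradation (4 higher, 2 lower) and 61.5% for the isoprenoid branches (6 higher, 2 lower). They were 38.1% for sterol carriers (5 higher, 3 lower) and 47.1% for storage, oxysterols and lipoprotein receptors (2 higher, 6 lower). In the list of 13 genes for sterol sensing and regulated degradation 4 were higher and none lower in high glucose, and with chrysin 4 were higher and 6 lower than in high glucose (30.8% and 76.9% called, against 23.5% and 45.8% of all genes). INSIG2, the homologue of INSIG1, rose from 10.5 to 14.7 FPKM in high glucose (0.46, limma adjusted p = 0.0012). It measured 11.6, 10.3 and 9.77 FPKM in low glucose, 14.8, 14.8 and 14.4 in high glucose and 10.1, 11.2 and 9.85 with chrysin, so high glucose stood above both other groups. MBTPS1, the Golgi protease that makes the first cut in the SREBPs, measured 163, 171 and 165 FPKM in low glucose, 167, 170.1 and 169.8 in high glucose and 128, 131 and 129 with chrysin. The chrysin libraries were lowest, with a log2 difference of -0.39 against high glucose (adjusted p = 1.2e-06). ERLIN2, which acts in sterol-regulated protein degradation, was higher with chrysin than in high glucose by 0.36 (adjusted p = 3.6e-05). SPRING1, a factor that sustains SREBP signalling, rose from 18.8 FPKM in low glucose to 27.9 with chrysin (0.56, adjusted p = 7.2e-06). NFYB, a subunit of the CCAAT-binding factor, was higher in high than in low glucose by 0.19 (adjusted p = 0.011), and SP1 by 0.15 (adjusted p = 0.025), which was lost at 0.0555 to 0.0865 without any 1 of the low glucose libraries or the high glucose library 2 or 3. The SP1 call was also lost under median-of-ratios scaling (0.055) and with only the groups compared (0.0522).

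In the isoprenoid branches 2 of 13 genes were higher and 2 lower in high glucose, and 4 higher and 2 lower with chrysin than in high glucose. These are 30.8% and 46.2% called, the latter close to the 45.8% of all genes. COQ2, which joins the side chain to the ubiquinone ring, measured 19.5, 19.2 and 20.6 FPKM in low glucose, 17.2, 17.3 and 16.6 in high glucose and 10.7, 12.3 and 10.5 with chrysin. The 3 groups did not overlap. It fell with chrysin by 0.59 on the log2 scale against high glucose (limma adjusted p = 2.9e-05) and by 0.80 against low glucose (adjusted p = 2.4e-06). DHDDS, a subunit of the dolichol-making enzyme, was higher with chrysin than in high glucose by 0.27 (adjusted p = 0.00036), and PDSS1, which builds the ubiquinone side chain, by 0.22 (adjusted p = 0.0041). NUS1, the partner of DHDDS, fell by 0.29 in high glucose (adjusted p = 0.0047). ICMT, which methylates prenylated proteins, rose by 0.23 (adjusted p = 0.0012). FNTB, the farnesyltransferase subunit, rose by 0.43 (adjusted p = 0.023), lost at 0.0505 to 0.0647 without the low glucose library 1 or 3 or any 1 of the high glucose libraries. The FNTB call was also lost with no filter (0.0629).

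Among 21 sterol carriers and contact site proteins 4 were higher and 3 lower in high glucose, and 5 higher and 6 lower with chrysin than in high glucose. The shares called were 33.3% and 52.4%, against 23.5% and 45.8% of all genes. STARD5, a sterol-binding relative of STARD4, measured 8.42, 8.45 and 8.44 FPKM in low glucose, 6.88, 6.15 and 6.31 in high glucose and 2.61, 3.87 and 3.57 with chrysin. Its chrysin libraries were the lowest, with a log2 difference of -0.87 from high glucose (limma adjusted p = 0.00013) and of -1.23 from low glucose (adjusted p = 7.7e-06). OSBPL9, an oxysterol-binding relative, was lower with chrysin than in high glucose, at -0.32 (adjusted p = 0.00025), and CCDC93, of the endosomal complex that recycles lipoprotein receptors, was higher by 0.48 (adjusted p = 6.3e-05). OSBPL5 and GRAMD1B, which move lipid at membrane contacts, rose in high glucose by 0.37 (adjusted p = 0.0026) and 0.34 (adjusted p = 0.0082). OSBP, which exchanges sterol for a phosphoinositide, fell by 0.17 (adjusted p = 0.014), lost at 0.0505 and 0.0558 without the low glucose library 1 or the high glucose library 2. STARD3, a late endosomal carrier, was higher with chrysin than in low glucose by 0.36 (adjusted p = 4.9e-05).

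Of 19 genes for storage, oxysterols and lipoprotein receptors 17 were tested, and with chrysin 3 were higher and 9 lower than in high glucose, while high glucose had 2 higher and 1 lower than low glucose. These are 70.6% and 17.6% called, against 45.8% and 23.5% of all genes. ABCA5, a lysosomal transporter of the ABCA family, measured 19.2, 19.6 and 20.2 FPKM in low glucose, 13.7, 14.5 and 15.1 in high glucose and 8.43, 8.3 and 8.67 with chrysin. The groups stepped down without overlap, with log2 differences of -0.44 in high glucose (limma adjusted p = 0.00026), -0.73 with chrysin against high glucose (adjusted p = 1.8e-06) and -1.17 against low glucose (adjusted p = 5e-08). LRP1, a large endocytic receptor, averaged 121, 133 and 95.7 FPKM in low glucose, high glucose and chrysin. It rose by 0.13 in high glucose (adjusted p = 0.0064) and fell by 0.47 with chrysin against high glucose (adjusted p = 5.6e-07). LRP8, a related receptor, was higher with chrysin than in low glucose by 0.49 (adjusted p = 8.1e-05). HSD3B7, a bile acid and oxysterol enzyme, was lower with chrysin than in high glucose, at -0.68 (adjusted p = 0.00022). LPCAT3, a phospholipid-remodelling liver X receptor target, rose by 0.24 in high glucose (adjusted p = 0.0024).

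Over the 18 alternative settings, 7 of the 11 calls in high against low glucose held in every one: HMGCS1, MVD, SQLE, HSD17B7, NPC1, STARD4 and MYLIP. DHCR7, INSIG1, SREBF1 and SREBF2 did not. Of the 18 calls with chrysin against high glucose 14 held in every setting, the exceptions being FDPS, EBP, STARD4 and NR1H2. For chrysin against low glucose 16 of 20 held, the exceptions being MVD, IDI1, NR1H3 and MYLIP. No call changed direction under any of the 18.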

How the data were processed

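AC16 RNA was measured in 9 libraries, 3 per group by their treatment labels. The authors deposited FPKM for 60671 genes, a unit read from the values. The submitters' processing notes list, without roles, the build hg38 and the tools HTSeq 0.13.5, StringTie 2.2.1, HISAT2 2.2.1 and fastp 0.23.4. No annotation, counting step or strand setting is given in the sources used here. Whole reads were recovered from the FPKM steps for all 28230 genes that were above 0 in at least 2 libraries, each within 4.6e-05 reads. All 9 libraries entered 1 two-sided fit of limma 3.58.1 (R 4.3.3, variance trend on) to log2(FPKM + 0.5), which understates changes of low genes, and the script was tested on simulated data. Intervals are 95%. The 18 alternatives were limma voom on the recovered reads, median-of-ratios scaling, scaling without mitochondrially encoded genes, a replicate block, fits of the compared groups alone, no filter, a filter at 5 FPKM, pseudocounts of 0.1 and 1, and each library left out in turn. All 31 genes were named, and of each other list up to 3 called genes with the smallest p per comparison, of which 1 is not reported here. The genes and lists were chosen with earlier results of these data known. Exon overlaps came from GENCODE 29 and promoters from RefSeq GRCh38.p14.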

Additional observations from a re-analysis of the deposited data

How the results depend on the processing

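Counts of the 30 genes called depended on the settings in part. In high against low glucose the 3 higher calls became 1 with no filter and 1 under median-of-ratios scaling, and 2 to 3 when single libraries were left out. The 8 lower calls became 6 to 8 when single libraries were left out. For chrysin against high glucose, leaving out single libraries gave 7 higher and 7 to 10 lower calls, with 7 lower without the chrysin library 2, and the other settings gave 7 to 8 and 8 to 11. For chrysin against low glucose, leaving out single libraries gave 5 to 7 higher and 11 to 14 lower, and the other settings gave 5 to 7 and 12 to 16. The cause was not tested. With the replicate number as a block the counts were 3 higher and 6 lower, 7 and 11, and 7 and 13 in the same order. DHCR7 (adjusted p = 0.0518) and SREBF2 (0.0503) lost their high glucose calls under the block and no other call changed. Same-numbered libraries deviated together in no comparison (correlations of -0.0153 to 0.008). These values cannot tell whether same-numbered libraries were handled together, which the labels do not state. CYP51A1, with 52 to 103 reads per library, was left out at a mean of at least 5 FPKM.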
